A study of Mus musculus with 8 samples.

Results

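The interstitial matrix and fibroblast genes are a named set of 33 genes that encode fibrillar and other collagens, small proteoglycans, fibulins and elastic fibre proteins, crosslinking enzymes, matricellular proteins and a few markers of fibroblasts. They were read from arrays of lymphatic endothelial cells (LEC) and blood vascular endothelial cells (BEC) sorted from the same mouse colons. Members were taken by name, through every probe set annotated with exactly 1 gene symbol, and 31 of the 33 had such a probe set, among 18193 genes named on the array. The 31 genes were covered by 71 probe sets, 1 to 6 each. Fbn1 was not analysed here, and the probe sets of Loxl2 also name another gene.

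Each group held 4 arrays, from the same 4 C57BL/6J mice, 3 female and 1 male (replicate 4), all 8 weeks old and described as healthy, so that replicate 1 of LEC and replicate 1 of BEC come from 1 mouse. Colons were opened, cleared of mucus and digested with collagenase IV and DNase I, and cells stained for CD31, podoplanin and CD45.2 were sorted into lysis buffer behind gates not stated in the labels. The pairs were selected by the submitters on the quality of RNA and amplified cDNA. Values are log2 signals, in which a step of 1 is a doubling, and each gene is shown by its brightest probe set.

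Interstitial matrix fills the space between the cells of a tissue. Fibrillar collagens bear tension, small leucine-rich proteoglycans coat the fibrils and set their diameter, elastin on a scaffold of microfibrils and fibulins gives recoil, and lysyl oxidases crosslink both networks. Fibroblasts are the main makers of this matrix in the gut wall, while endothelial cells are known to make some of it themselves, including SPARC, matrix Gla protein and fibronectin. Lymphatic capillaries are tied to the surrounding matrix by anchoring filaments.

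The sort was checked on marker genes. Of 7 lymphatic markers 6 had a named probe set, and all 6 were higher in LEC in the fit described below; 7 of 8 blood vessel markers were lower. Pdpn, one of the 6, encodes a sort antigen. LEC replicate 1 stood apart, with a median Spearman correlation to the other LEC arrays of 0.603 against 0.745 to 0.746 for the others. Of the 13259 genes tested below, it had the fewest above background (9593). The level called background is set on each array by 27 bacterial control probe sets and lay between 3.43 and 4.88. Summed linear signal of 18 epithelial markers was 24713 on BEC replicate 3, 7218 on BEC replicate 4 and 12729 on LEC replicate 3, against 860 to 2232 on the other 5 arrays. Results that change without one of these arrays are given with and without it.

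Across the set, the levels of few genes separated the cell types, and with all 8 arrays those that did were mostly brighter in BEC. After a filter on dim probe sets 28 members were tested, and limma with Benjamini-Hochberg adjustment over all 13259 genes called 5 of them at an adjusted p under 0.05 (17.9%; over all genes 4.07%). Fbln1 was higher in LEC (1 of 28, 3.57%; over all genes 1.76% were called higher), and Sparc, Mgp, Col8a1 and Fbln2 were lower (4 of 28, 14.3%; over all genes 2.31%). The 8 arrays did not overlap between cell types for 2 members higher in LEC (Col3a1 and Fbln1, against 5.19% of all genes) and for 5 lower (the 4 called and Serpinf1, against 5.19%). The median difference, LEC minus BEC, was 0.75 over the 28 members and 0.08 over all genes tested, 19 members lying above 0 and 9 below. At an unadjusted p under 0.05 there were 13 members (46.4%), against 14.4% of all genes. Without the filter, when all 31 members were tested, the calls were again Fbln1 higher and the same 4 genes lower, against 1.23% and 1.54% of all genes. With the mouse as a replicate block, Dpt and Fbln1 were called higher and Mgp, Serpinf1 and Sparc lower, and the calls of Col8a1 and Fbln2 were lost. Without LEC replicate 1, Col1a2, Dcn, Dpt, Fbln1 and Postn were called higher (5 of 28, against 1.71% of all genes). Fbln2, Lox, Mgp and Sparc were then called lower (4 of 28, against 2.48%), so the direction of most calls depended on that array. The arrays read RNA of sorted pools, in which more cells of a type and more RNA per cell cannot be told apart.

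**Figure D1:**
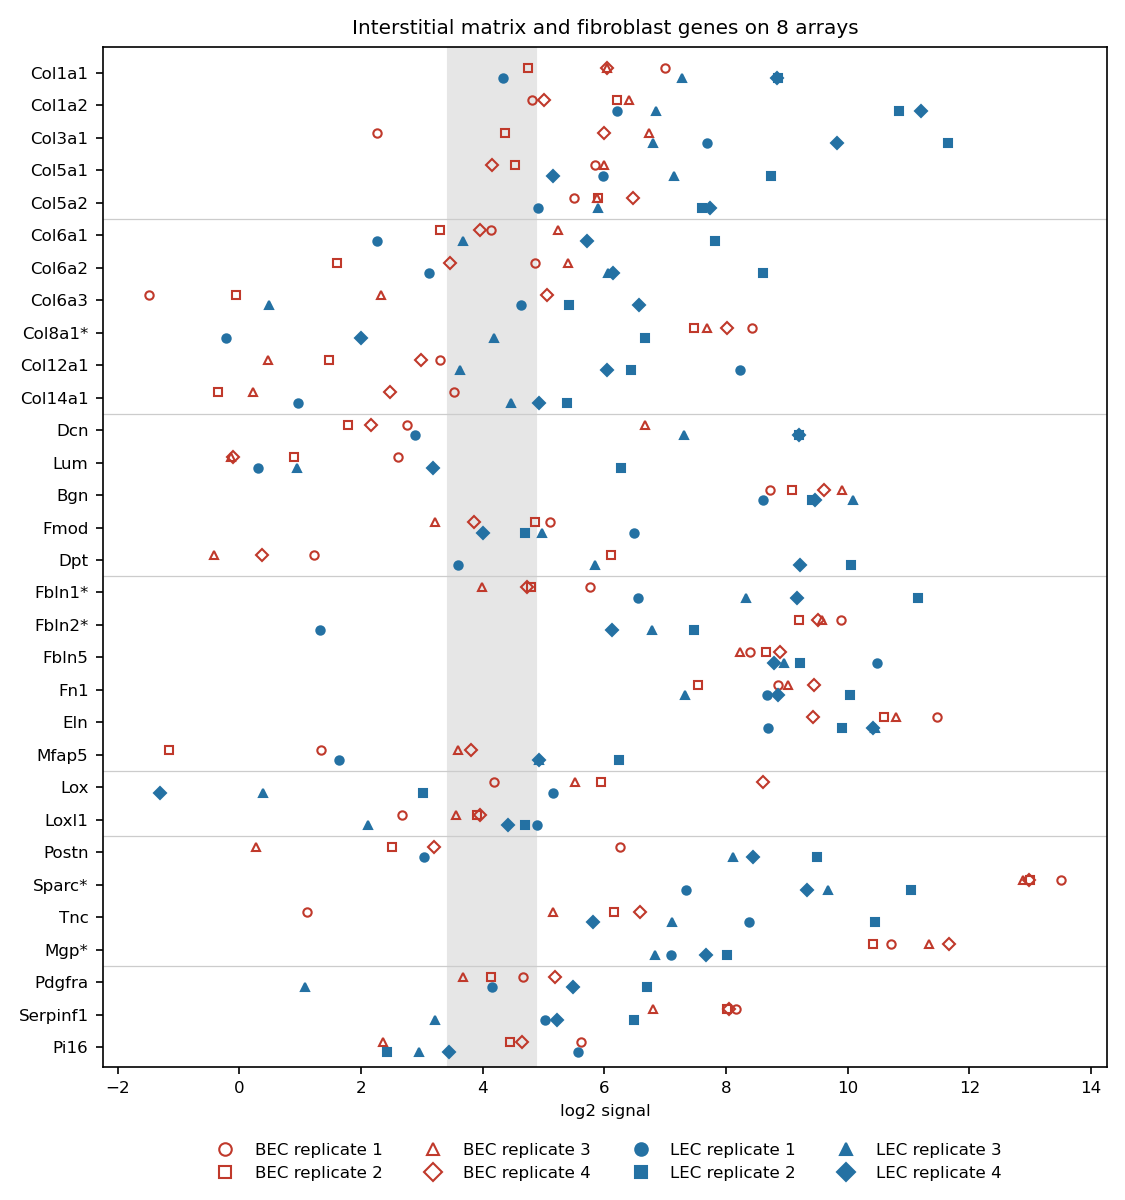
Log2 signal of 31 matrix and fibroblast genes (rows, grouped by role) on each of the 4 BEC and 4 LEC arrays; each point is 1 array, the grey band spans the backgrounds of the 8 arrays and an asterisk marks an adjusted p under 0.05. The BEC points of Sparc, Mgp and Fbln2 stand together above their LEC points, whereas the LEC points of the collagens, Dcn, Dpt and Postn are spread over several log2 units.

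The fibrillar collagens form the tension-bearing fibrils, type I from the chains of Col1a1 and Col1a2, type III from Col3a1 and type V, which starts fibril assembly, from Col5a1 and Col5a2. Col1a2 had signals of 4.81, 6.21, 6.41 and 5.00 on BEC replicates 1 to 4 and of 6.20, 10.84, 6.85 and 11.20 on LEC replicates 1 to 4. LEC replicates 2 and 4 were far above every other array, and LEC replicates 1 and 3 lay at the height of the brightest BEC arrays. The difference was 3.16 ± 1.06 (SE, n = 4 per group; limma adjusted p = 0.141), higher in LEC in all 4 mice by 1.39, 4.63, 0.44 and 6.20. Without LEC replicate 1 it was 4.02 with an adjusted p of 0.038. A second, dimmer probe set of Col1a2 read 5.39, 7.85, 4.02 and 5.65 on the LEC arrays and had a difference of 0.86 (adjusted p = 0.761 over probe sets), so the height of LEC replicate 4 is seen with only one of the 2.

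Col3a1 gave 2.26, 4.36, 6.73 and 6.00 on the BEC arrays and 7.69, 11.64, 6.80 and 9.83 on the LEC arrays. All LEC values were above all BEC values, but LEC replicate 3 by only 0.07 over the BEC array of its mouse. The difference of 4.15 ± 1.13 had an adjusted p of 0.0584 (limma), and it fell under the threshold when values were raised to background (0.0168), without BEC replicate 3 (0.0455) and without LEC replicate 3 (0.0289). For Col1a1 the BEC arrays read 7.00, 4.74, 6.04 and 6.05 and the LEC arrays 4.33, 8.85, 7.28 and 8.84. On this probe set the groups overlapped, since LEC replicate 1 was the dimmest of the 8. The difference was 1.37 ± 0.96 (limma adjusted p = 0.587). A second probe set of Col1a1 read 5.09, 4.58, 6.11 and 5.27 in BEC and 6.71, 8.66, 6.23 and 7.96 in LEC. There the groups did not overlap, with a difference of 2.13 (limma adjusted p = 0.166 over probe sets). Col5a1 and Col5a2 differed by 1.62 ± 0.86 and 0.60 ± 0.76 (limma adjusted p = 0.431 and 0.801), with overlapping groups.

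The chains of type VI collagen, which forms beaded filaments near cell surfaces, showed the same spread of LEC arrays. Col6a2 ran at 4.86, 1.60, 5.40 and 3.47 in BEC and at 3.12, 8.61, 6.06 and 6.14 in LEC, a difference of 2.15 ± 1.16 (limma adjusted p = 0.441). Its LEC replicate 1 sat inside the BEC values and the other 3 above them. Col6a1 differed by 0.71 ± 1.11 (limma adjusted p = 0.85), and the sign turned without LEC replicate 2 (-0.27). Col6a3 differed by 2.82 ± 1.58 (limma adjusted p = 0.464), and by 1.07 with values raised to background. Col6a1 was above background on 2 BEC and 2 LEC arrays, and Col6a3 on 1 and 2. Both were below background on LEC replicates 1 and 3.

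Col8a1 encodes a short-chain collagen of vessel walls and moved the other way. It read 8.43, 7.48, 7.68 and 8.02 in BEC and -0.22, 6.66, 4.18 and 2.00 in LEC. Every BEC array was above every LEC array, and LEC replicate 2 came closest. The group means were 7.90 ± 0.42 and 3.15 ± 2.95 (SD, n = 4), a fall of at least 7.84-fold in LEC once values were raised to background (limma adjusted p = 0.0381). The adjusted p was 0.0615 with the replicate block, 0.106, 0.0861, 0.0819 and 0.106 without BEC replicates 1 to 4, and 0.0581 and 0.104 without LEC replicates 1 and 4. It was also above the threshold with quantile normalization (0.0588), equal hybridisation controls (0.0615) and no intensity trend (0.0899). The separation was that of 1 probe set: a second one overlapped between the groups, with LEC replicate 1 the brightest of the 8 arrays at 6.72 (difference -1.23, adjusted p = 0.637 over probe sets), and the remaining one differed by -2.93 (adjusted p = 0.233). The fibril-associated collagens Col12a1 and Col14a1 did not pass the filter. Col12a1 was above background on 0 of 4 BEC arrays and on 3 of 4 LEC arrays, where it read 8.23, 6.43, 3.62 and 6.05, and Col14a1 likewise on 0 and 3.

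Among the small proteoglycans, decorin and biglycan, close relatives that both bind collagen fibrils, behaved differently. Dcn gave 2.76, 1.78, 6.67 and 2.16 on the BEC arrays and 2.88, 9.19, 7.30 and 9.20 on the LEC arrays. LEC replicates 2 to 4 were above all BEC arrays, while LEC replicate 1 was below background. The difference was 3.80 ± 1.41 (limma adjusted p = 0.203), and 5.22 with an adjusted p of 0.0227 without LEC replicate 1. Bgn read 8.72, 9.08, 9.90 and 9.61 in BEC and 8.61, 9.41, 10.09 and 9.46 in LEC. Its groups overlapped along their whole length, with a difference of 0.06 ± 0.45 (limma adjusted p = 0.97) whose sign turned under 5 alternatives. Fmod, encoding fibromodulin, differed by 0.78 ± 0.83 (limma adjusted p = 0.747). Lum, encoding lumican, was above background on 1 LEC array, replicate 2 at 6.27, and on 0 BEC arrays, and did not pass the filter.

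Dermatopontin, the product of Dpt, binds decorin and promotes fibril formation. Dpt had signals of 1.22, 6.10, -0.41 and 0.37 in BEC and 3.60, 10.05, 5.84 and 9.21 in LEC. LEC was higher in each of the 4 mice, but BEC replicate 2 stood above LEC replicates 1 and 3. Its difference of 5.35 ± 1.58, the largest of the 28 members, had an adjusted p of 0.0854 (limma). The adjusted p was 0.0289 with the replicate block, and 0.0235 and 0.0308 without BEC replicate 2 and LEC replicate 1. Dpt was above background on only 1 BEC array, and that size rests on values below it. Raised to background, the difference was 3.13 (at least 8.73-fold), less than for Fbln1 (3.99), Col3a1 and Postn (3.59 each).

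The fibulins, which bridge elastic fibres and basement membranes, went in different directions. Fbln1 gave 5.77, 4.79, 3.98 and 4.72 on the BEC arrays and 6.55, 11.16, 8.33 and 9.17 on the LEC arrays. All LEC arrays were brighter than all BEC arrays, LEC replicate 1 by the least. The means of 4.82 ± 0.73 and 8.80 ± 1.91 (SD, n = 4) put Fbln1 15.8-fold higher in LEC (difference 3.99 ± 0.88, limma adjusted p = 0.0194). The fold was 26.7 without LEC replicate 1 and 9.19 without LEC replicate 2. The call was lost without BEC replicates 2, 3 or 4 (0.0549, 0.0564 and 0.0556) and without LEC replicates 2 or 4 (0.0609 each). It was also lost with equal hybridisation controls (0.0926), means of probe sets (0.0626) and no intensity trend (0.0507), and other probe sets of Fbln1 gave 2.68 and 1.15 (adjusted p = 0.371 and 0.579 over probe sets).

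Fbln2 ran opposite, at 9.88, 9.19, 9.57 and 9.51 in BEC and 1.33, 7.47, 6.79 and 6.12 in LEC. The BEC arrays were close to each other and all above the LEC arrays, of which replicate 1 was below background. Fbln2 was at least 9.31-fold lower in LEC (means 9.54 ± 0.28 and 5.43 ± 2.79, SD, n = 4; limma adjusted p = 0.0472). The adjusted p was 0.0657 with the replicate block, 0.123, 0.102, 0.108 and 0.119 without BEC replicates 1 to 4 and 0.0776 without LEC replicate 4. A second probe set of Fbln2 was above background on 0 arrays, and with the mean of the probe sets the difference was -0.79 (adjusted p = 0.663). Quantile normalization, equal medians, equal hybridisation controls and no intensity trend gave 0.0817, 0.0614, 0.0902 and 0.127. Fbln5, needed for elastic fibre assembly, read 8.40, 8.65, 8.22 and 8.89 in BEC and 10.48, 9.22, 8.95 and 8.78 in LEC, with overlapping groups and a difference of 0.82 ± 0.48 (limma adjusted p = 0.49).

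Elastin and fibronectin were bright in both cell types. Eln had signals of 11.46, 10.60, 10.79 and 9.43 in BEC and 8.69, 9.91, 10.45 and 10.41 in LEC, a difference of -0.70 ± 0.50 (limma adjusted p = 0.592). A dimmer probe set of Eln went the other way, at 7.29, 6.77, 7.09 and 7.04 in BEC and 7.28, 8.63, 8.71 and 8.56 in LEC. Its difference was 1.25 (limma adjusted p = 0.321 over probe sets). Fn1, encoding the adhesive glycoprotein fibronectin, ranged from 7.53 to 9.45 in BEC and from 7.32 to 10.04 in LEC, a difference of 0.01 ± 0.62 (limma adjusted p = 0.996). Both genes overlapped between cell types, and the sign of Fn1 turned under 5 alternatives. The microfibril gene Mfap5 differed by 2.53 ± 1.33 (limma adjusted p = 0.427). Of the crosslinking enzymes, Lox read 4.18, 5.95, 5.51 and 8.60 in BEC and 5.16, 3.02, 0.39 and -1.30 in LEC. LEC was lower in mice 2 to 4 and not in mouse 1, with a difference of -4.24 ± 1.37 (limma adjusted p = 0.128), and of -5.36 without LEC replicate 1 (adjusted p = 0.0368). The exception of mouse 1 was that of 1 probe set. Another probe set of Lox read 5.19, 5.97, 4.07 and 4.62 in BEC and 0.05, 5.23, 0.84 and 0.15 in LEC. There LEC was lower in each mouse, with a difference of -3.39 (limma adjusted p = 0.205 over probe sets). Loxl1 differed by 0.50 ± 0.92 (limma adjusted p = 0.875).

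The matricellular proteins bind matrix and cells without forming fibres, and 2 of them had the lowest adjusted p-values of the set. Sparc, whose product binds collagen and calcium, read 13.51, 12.99, 12.88 and 12.97 on the BEC arrays and 7.34, 11.04, 9.68 and 9.33 on the LEC arrays. The brightest LEC array, replicate 2, was still below the dimmest BEC array. The means were 13.09 ± 0.29 and 9.35 ± 1.53 (SD, n = 4), 13.4-fold lower in LEC (difference -3.74 ± 0.58, limma adjusted p = 0.00168), and 8.41-fold lower without LEC replicate 1. A second Sparc probe set read 13.15, 12.64, 12.94 and 13.06 in BEC and 9.40, 10.24, 8.75 and 9.31 in LEC (difference -3.52, adjusted p = 4.15e-05 over probe sets). On that probe set LEC replicate 1 did not stand low.

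Mgp encodes matrix Gla protein, an inhibitor of calcification. It had signals of 10.71, 10.41, 11.34 and 11.66 in BEC and 7.10, 8.02, 6.83 and 7.67 in LEC. The groups were far apart and each was tight, with means of 11.03 ± 0.57 and 7.41 ± 0.54 (SD, n = 4). Mgp was 12.3-fold lower in LEC (difference -3.62 ± 0.46, limma adjusted p = 3.51e-04). Sparc and Mgp kept their call under each of the 17 alternatives, at adjusted p-values up to 0.0288 and 0.0068.

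Periostin and tenascin-C, made by activated fibroblasts, were not called. Postn gave 6.26, 2.51, 0.27 and 3.20 in BEC and 3.03, 9.49, 8.11 and 8.45 in LEC. LEC replicates 2 to 4 were above all BEC arrays and LEC replicate 1 among them. The difference was 4.21 ± 1.43 (limma adjusted p = 0.153), and 5.63 without LEC replicate 1 (adjusted p = 0.0184). Tnc read 1.11, 6.16, 5.16 and 6.58 in BEC and 8.38, 10.44, 7.11 and 5.82 in LEC, a difference of 3.19 ± 1.21 (limma adjusted p = 0.217).

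The set also holds 3 genes known as fibroblast markers. Pdgfra, the receptor for platelet-derived growth factor on fibroblasts, gave 4.66, 4.13, 3.67 and 5.19 in BEC and 4.16, 6.70, 1.08 and 5.48 in LEC. The groups overlapped, with a difference of -0.06 ± 1.11 (limma adjusted p = 0.991). Serpinf1, encoding the secreted factor PEDF, which inhibits vessel growth, read 8.17, 8.02, 6.80 and 8.04 in BEC and 5.02, 6.49, 3.22 and 5.22 in LEC. Its BEC arrays were all above its LEC arrays. The difference was -2.77 ± 0.76 (limma adjusted p = 0.0627), with an adjusted p of 0.0495 under the replicate block and of 0.0398 without LEC replicate 2. Serpinf1 was called lower under 6 of 17 alternatives, the adjusted p running from 0.0126 to 0.172. On a second probe set the groups did not overlap either, with a difference of -2.96 (limma adjusted p = 0.151 over probe sets). Its LEC values lay below background. Pi16 differed by -0.66 ± 1.01 (limma adjusted p = 0.846).

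**Figure D2:**
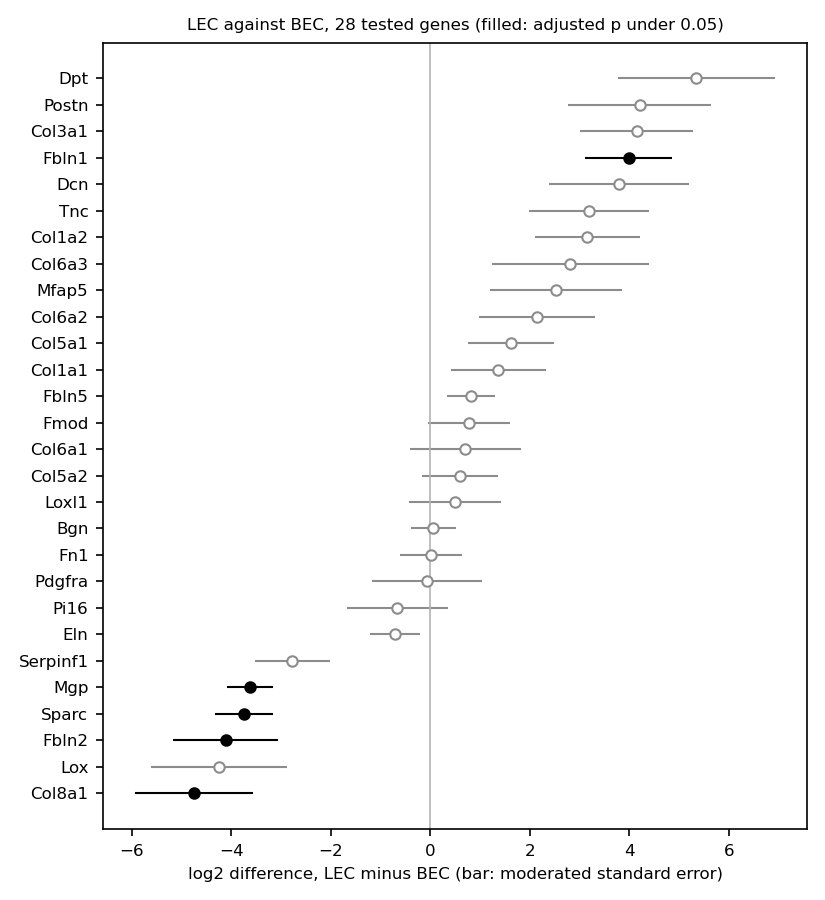
Difference between LEC and BEC (log2, horizontal axis) of 28 tested genes with its moderated standard error from limma (bars, n = 4 arrays per group); filled points have an adjusted p under 0.05. Differences run from -4.75 for Col8a1 to 5.35 for Dpt, and the bars of Sparc (0.58) and Mgp (0.46) are short against their size.

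The LEC arrays lay further apart on these genes than on the median gene. The median range over the 4 LEC arrays, highest minus lowest, was 4.61 log2 units for the 28 members and 2.36 for all genes tested. Over the BEC arrays the medians were 1.90 and 2.06. Without the filter the 31 members had medians of 4.61 in LEC and 1.95 in BEC, against 2.65 and 2.39 for the 18193 named genes. The LEC range was the wider in 24 of 31 members, and in 55% of all named genes. Since dim genes vary more, each member was set beside genes within 0.50 log2 units of its own LEC mean, and 23 of 28 members had a wider range than the median of those genes. For Dcn, Postn, Dpt, Col1a2, Col3a1 and Fbln1 the range was wider than in 97.6% to 98.3% of such genes, and for Mgp it was wider than in 18.5%.

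**Figure D3:**
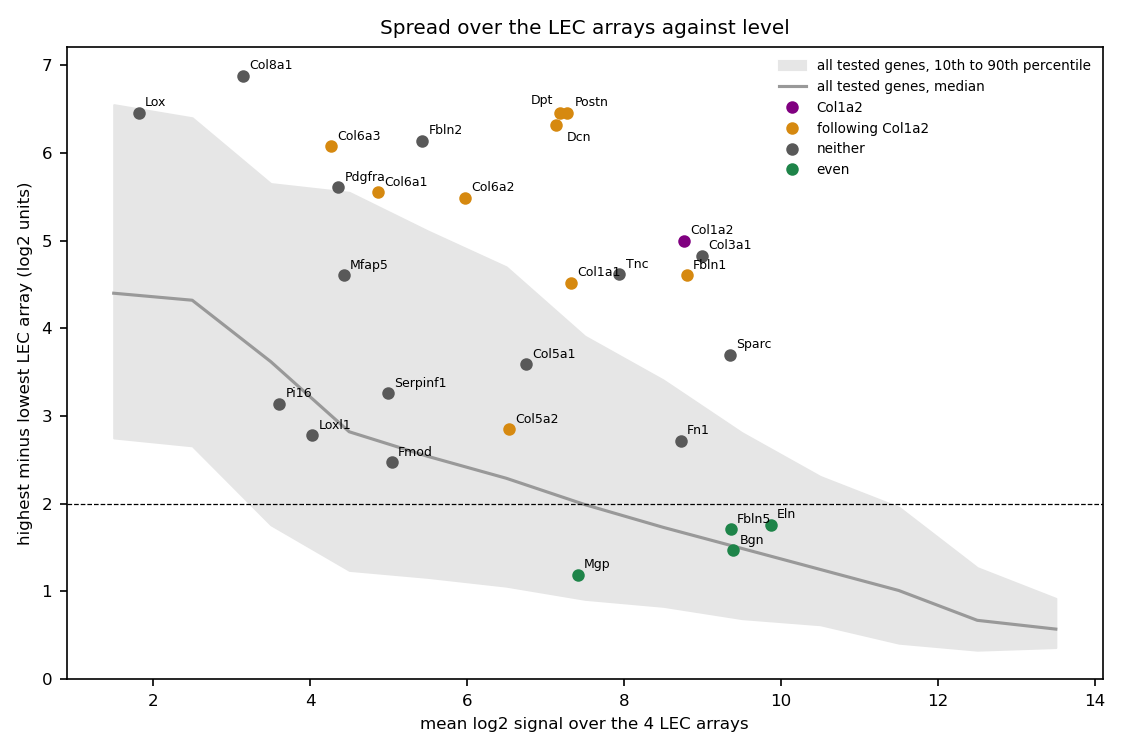
Range of each gene over the 4 LEC arrays (log2, vertical axis) against its mean LEC signal (log2, horizontal axis); the grey band holds the 10th to 90th percentile of all genes tested at that level and the dashed line marks a range of 2. Bgn, Eln, Fbln5 and Mgp lie under the line, and Dcn, Dpt and Postn lie above 6.

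LEC replicate 2 was the brightest LEC array for 19 of 31 members and LEC replicate 1 the dimmest for 17. These counts were not made over all genes, so they cannot show a trait particular to the members. Genes were sorted into those even over the LEC arrays (above background on all 4, range at most 2) and those following Col1a2 (range over 2, at least 5 of the 6 pairs of LEC arrays in the order of Col1a2). Even were 4 genes, Bgn, Eln, Fbln5 and Mgp (4 of 28, 14.3%; over all genes 32.9%). Following Col1a2 were 9 of 27, namely Col1a1, Col5a2, Col6a1, Col6a2, Col6a3, Dcn, Dpt, Fbln1 and Postn (33.3%; over all genes 10.2%). Col5a2 and Dcn had all 6 pairs in order. With values raised to background 8 genes followed, Col6a1 no longer among them, against 7.12% of all genes. The followers comprised 2 fibrillar collagens, all 3 type VI chains, the proteoglycan gene Dcn, Dpt, 1 fibulin and 1 matricellular gene. None of the crosslinking enzymes or of Pdgfra, Serpinf1 and Pi16 was among them. Both the even and the following genes were chosen on these 4 arrays, so the counts describe them. Other probe sets of these genes mostly did not show the pattern. Of the followers 5 had other probe sets that passed the filter, 6 in all, and 1 of those 6, of Dcn, followed; those of Col1a1, Col5a2, Col6a2 and Fbln1 did not, and neither did the second probe set of Col1a2 itself. Over the set 1 of 19 other probe sets followed. Among the even genes, the 2 other probe sets of Bgn ranged over 3.48 and 2.13 on the LEC arrays and were not even. The other probe set of Eln ranged over 1.43 and was even.

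Col1a2 separates replicates 4 and 2, and replicates 3 and 1, by little, and these pairs decide several cases. When only the 4 widely separated pairs were read, a choice made after seeing the data, 13 genes followed, adding Col3a1, Fn1, Pdgfra and Serpinf1, against 8.65% of all genes. Without LEC replicate 1, 12 genes were even, with Col1a1, Col5a2, Dcn, Fbln2, Fmod, Mfap5, Postn and Sparc joining the 4, against 50.7% of all genes. The even genes without LEC replicates 2, 3 and 4 in turn numbered 6, 7 and 5, against 40%, 40.1% and 41.4% of all genes. A gene even on all 4 arrays is by definition even on any 3. Leaving out an array thus cannot test Bgn, Eln, Fbln5 and Mgp. With array means set equal on hybridisation controls only Fbln5 and Fmod were even, against 27.8% of all genes. With each gene read as the mean of its probe sets, 21 members passed the filter and Col1a2 itself was even, with Bgn, Eln, Mgp and Sparc. The reference pattern was then largely gone, and Col6a3 and Dcn alone followed its order, against 6.21% of all genes.

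**Figure D4:**
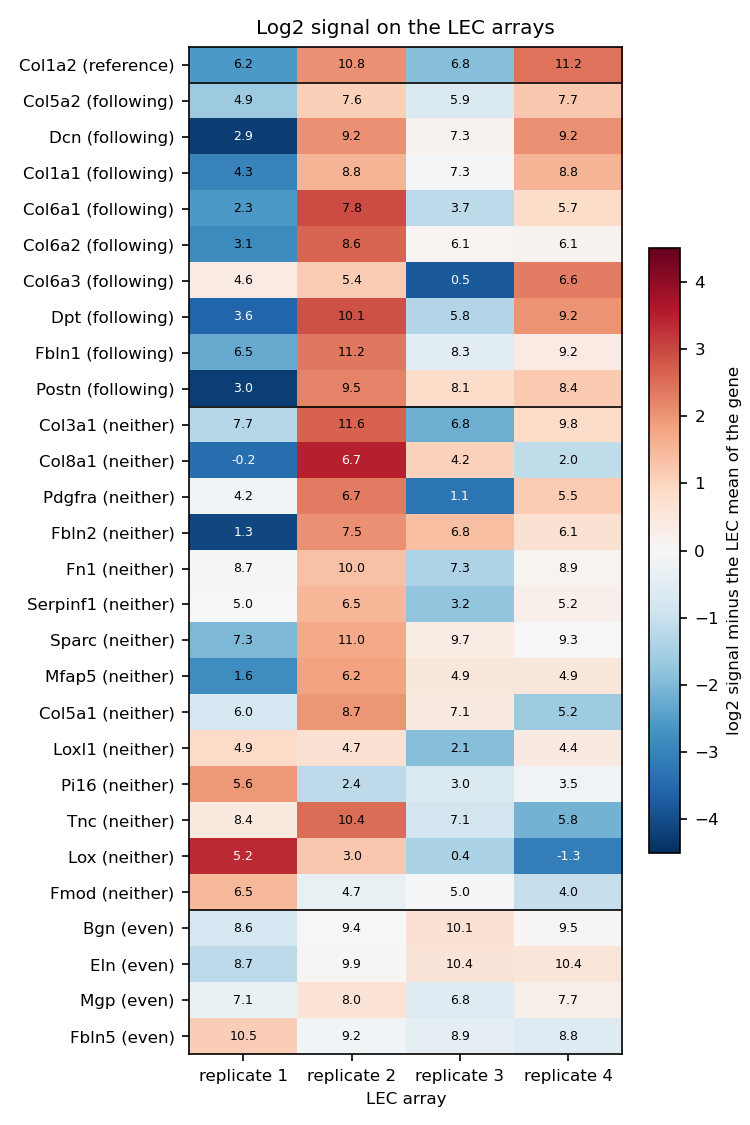
Log2 signals of 28 genes on LEC replicates 1 to 4 (numbers in cells), coloured by the deviation from the gene's own LEC mean and grouped into even genes, genes following Col1a2 and the others. In the following group replicate 2 or 4 holds the brightest cell and replicate 1 or 3 the dimmest, while the colours of Bgn, Eln, Fbln5 and Mgp stay pale.

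Promoters are shown for 2 genes that were bright on LEC replicates 2 and 4, Col1a2 and Fbln1, and for 2 that were higher in BEC, Fbln2 and Sparc, to set the sequences beside the opposite patterns. They come from RefSeq (GRCm38.p6), are the 250 bases before an annotated start and run 5′ to 3′ on the strand of the gene. Capitals mark CCAAT and GGGCGG, the latter also as its reverse complement CCGCCC. Col1a2 lies at chr6:4505368-4505617 (+), the second listed start of Fbln1 at chr15:85205758-85206007 (+), Fbln2 at chr6:91212514-91212763 (+) and Sparc at chr11:55420081-55420330 (-).
Col1a2: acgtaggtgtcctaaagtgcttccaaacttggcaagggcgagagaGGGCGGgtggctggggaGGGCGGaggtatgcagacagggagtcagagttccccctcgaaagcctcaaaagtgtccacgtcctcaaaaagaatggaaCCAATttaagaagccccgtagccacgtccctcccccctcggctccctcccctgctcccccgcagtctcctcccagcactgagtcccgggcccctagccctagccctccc
Fbln1: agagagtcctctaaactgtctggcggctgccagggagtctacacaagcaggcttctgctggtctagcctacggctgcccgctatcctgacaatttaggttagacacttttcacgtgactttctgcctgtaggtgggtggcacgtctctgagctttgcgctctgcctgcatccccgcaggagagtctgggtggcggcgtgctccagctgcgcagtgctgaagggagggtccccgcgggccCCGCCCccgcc
Fbln2: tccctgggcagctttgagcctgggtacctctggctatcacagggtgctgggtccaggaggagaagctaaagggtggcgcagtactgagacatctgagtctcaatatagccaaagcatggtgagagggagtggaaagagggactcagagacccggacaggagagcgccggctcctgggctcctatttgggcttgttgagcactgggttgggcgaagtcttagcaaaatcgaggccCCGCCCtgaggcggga
Sparc: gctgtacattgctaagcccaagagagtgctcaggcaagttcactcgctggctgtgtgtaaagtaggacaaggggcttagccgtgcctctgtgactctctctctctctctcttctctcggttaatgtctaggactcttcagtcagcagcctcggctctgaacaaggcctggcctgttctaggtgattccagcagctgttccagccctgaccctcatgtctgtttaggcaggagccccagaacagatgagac
The Col1a2 sequence holds CCAAT at 109 to 105 bases before the start and GGGCGG at 205 to 200 and 188 to 183. Fbln1 and Fbln2 each hold 1 GGGCGG on the opposite strand, at 11 to 6 and 16 to 11 bases, and none of the 3 motifs searched, TATAAA being the third, is in the Sparc window. Promoters were listed for 20 member genes, 25 in all. On either strand and counting overlapping matches, CCAAT was in 4 of them (16%; 33.8% of all 32851 promoters), TATAAA in 4 (16%; 12.4%) and GGGCGG in 12 (48%; 32.7%). These are matches of letters only.

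Genes most like Col1a2 over the 8 arrays, by the root mean square difference after centring each gene, were not matrix genes. The 10 nearest of 13258 were Ms4a4d (0.99), Ppp1r21 (1.00), Gpr153 and Slc9b2 (1.08 each), Ahsg and Nrxn2 (1.11 each), Ctdspl (1.18), Polr3c (1.21), Pus7l (1.22) and Tyw5 (1.24), and the median gene was at 2.53. Of the members, Fbln1 (1.34) and Col3a1 (1.38) were nearest, followed by Col6a1 and Col1a1 (1.54 each), Dcn (1.56) and Col5a2 (1.61).

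Markers of fibroblasts outside the set were read on the same arrays. The summed linear signal of 26 such genes was 1448, 928, 1929 and 390 on BEC replicates 1 to 4 and 1464, 7728, 1013 and 3107 on LEC replicates 1 to 4. LEC replicates 2 and 4, the arrays on which Col1a2 was high, had the largest sums. Most of that came from Adamdec1, a protease gene of gut fibroblasts, and without it the LEC sums were 1103, 2520, 807 and 856, so replicate 4 no longer stood out. Of the 26 genes 5 to 10 were above background on the BEC arrays and 10 to 14 on the LEC arrays. The sum of the 31 members was 19588, 13720, 15496 and 16123 in BEC and 4394, 19271, 5939 and 10511 in LEC. Sparc, at log2 signals of 12.88 to 13.51, was the brightest member on each BEC array and a large part of the BEC sums. The sums thus do not speak for most members, since 19 of the 28 tested had a difference above 0 and 9 below. In both lists LEC replicate 2 had the largest LEC sum and replicate 4 the next. The part of fibroblast RNA in these differences was not tested.

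Adamdec1 itself gave 2.25, 4.72, 3.14 and 1.63 in BEC and 8.50, 12.35, 7.69 and 11.14 in LEC. It was at least 59.4-fold higher in LEC (difference 6.98 ± 1.03, limma adjusted p = 0.00127), and at least 33.9-fold and 99.4-fold without LEC replicates 2 and 3. Like Col1a2 it was high on LEC replicates 2 and 4, yet LEC replicates 1 and 3 were still above all BEC arrays. Wnt5a, a signalling gene of stromal cells, was at least 3.88-fold higher in LEC (difference 5.81 ± 1.24, limma adjusted p = 0.0163; 0.064 and 0.0543 without LEC replicates 3 and 4, 0.0858 with means of probe sets). These were the 2 called of 16 tested in that list, 0 being lower, with a median difference of 1.62 against 0.08 over all genes.

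Other cell types were read in the same way. Summed signals of 18 pericyte and smooth muscle markers were 1615 to 2574 in BEC and 1245 to 3251 in LEC, LEC replicate 2 being highest, with 8 to 14 and 7 to 11 of them above background. Rgs5, a pericyte gene, was the 1 called of 11 tested, at least 27.9-fold lower in LEC (limma adjusted p = 0.00849), while Acta2 and Myh11 differed by -2.15 and -1.10 (limma adjusted p = 0.155 and 0.558). Pdgfrb, Kcnj8, Synpo2 and Abcc9 differed by 1.81, 1.74, 1.48 and 1.26, none of them called. Without Rgs5 the sums were 1090 to 1945 in BEC and 1217 to 3204 in LEC, so the rest of the list did not sum lower in LEC. The blood vessel markers summed to 20824 to 28882 in BEC and to 2365, 3459, 1908 and 4139 on LEC replicates 1 to 4. Nearly all of the LEC sums was Emcn, which was bright in both cell types and not called, and without it the other 7 markers summed to 17606 to 23838 in BEC and to 177, 381, 218 and 394 in LEC. Sums of 15 leukocyte markers were 195 to 571 in BEC and 326 to 956 in LEC, and of 9 glial and neuronal markers 380 to 1045 and 406 to 800, with 0 called in either list. Of the 8 mesothelial markers Gpm6a, which was called, made up most of the LEC sums of 2948 to 4225 (BEC 50.9 to 357), and Msln was at 2.66, 5.49, 0.75 and 4.20 in LEC. The median difference of the 5 tested was 2.38, against 0.08 over all genes. Upk1b, Lrrn4 and Upk3b differed by 2.41, 2.38 and 2.08 and Krt7 by -1.09, none of them called. The part of these cells in the members' differences was not tested.

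**Figure D5:**
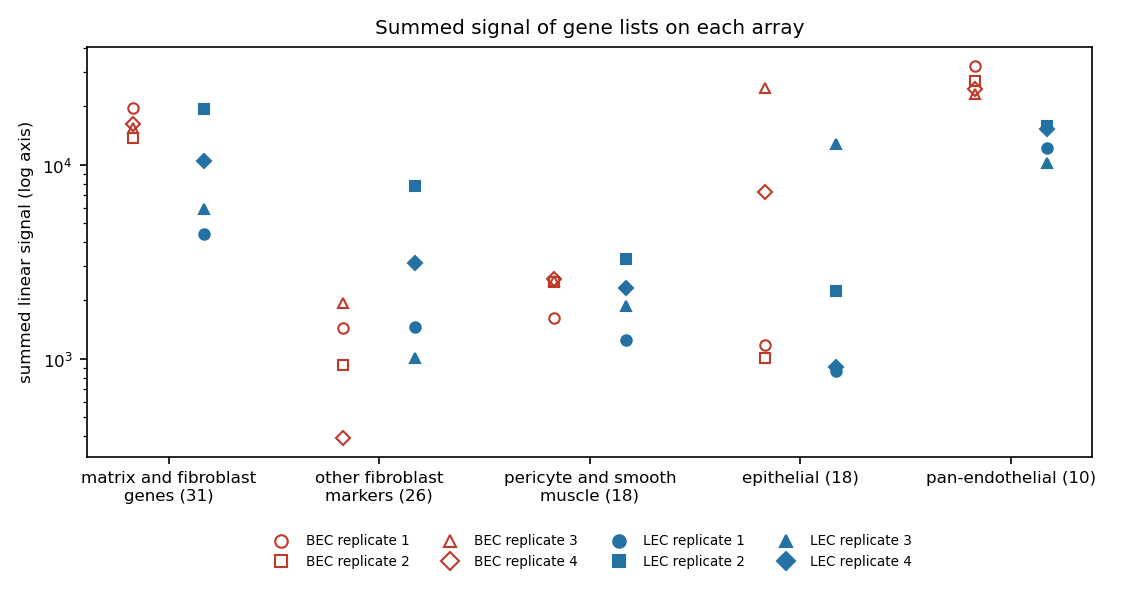
Summed linear signal (log axis) of the matrix and fibroblast genes and of 4 marker lists on each of the 8 arrays, 1 point per array. LEC replicates 2 (7728) and 4 (3107) are highest for the fibroblast markers outside the set, and BEC replicate 3 (24713), LEC replicate 3 (12729) and BEC replicate 4 (7218) for the epithelial markers.

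Related matrix genes were mostly not called, and several of those that were had even LEC arrays. A small spread within a group favours a call, and 32.9% of all genes tested were even. Even LEC arrays among called genes therefore cannot be read as a trait of these genes. Of 7 tested proteoglycan genes outside the set 2 were higher in LEC and 0 lower (median difference 0.85). Prelp, a leucine-rich proteoglycan that links basement membrane to collagen, gave 6.35, 7.18, 8.79 and 8.37 in BEC and 13.53, 13.10, 12.09 and 12.57 in LEC. It was 35.5-fold higher in LEC (difference 5.15 ± 0.53, limma adjusted p = 8.82e-05), with no overlap and a narrow LEC spread. Ecm2 was at least 8.59-fold higher (difference 3.21 ± 0.67, limma adjusted p = 0.0138; 0.0696 with equal hybridisation controls), from LEC signals of 7.38 to 7.93.

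Of 17 matricellular genes outside the set 3 were higher and 2 lower (median 0.27). Tnxb, encoding the collagen-binding tenascin-X, read 2.18, 2.05, 3.47 and 3.02 in BEC and 11.31, 10.74, 9.72 and 9.87 in LEC, at least 104-fold higher (difference 7.73 ± 0.66, limma adjusted p = 2.50e-05). Tgfbi ran at 6.30, 6.19, 7.88 and 6.05 in BEC and at 11.49, 11.51, 11.69 and 11.91 in LEC, 33.2-fold higher (difference 5.05 ± 0.48, limma adjusted p = 5.81e-05). Both were even over the LEC arrays, where the tenascin of the set, Tnc, ranged over 4.62. Hmcn1, encoding hemicentin, was at least 3.25-fold higher (limma adjusted p = 0.0285; 0.0539 with the replicate block, and 0.0568 to 0.0964 without BEC replicates 1 or 4 or any single LEC replicate). Its call was also lost with equal hybridisation controls (0.0686) and with values raised to background, the setting behind that fold, where the difference was 1.70 (adjusted p = 0.0581). Sparcl1, the closest relative of Sparc, read 10.20, 10.94, 9.62 and 10.47 in BEC and 2.11, 5.21, 3.17 and 1.77 in LEC, at least 56.7-fold lower (difference -7.24 ± 0.78, limma adjusted p = 1.25e-04). Its direction was that of Sparc. Thbs1, encoding thrombospondin-1, was 6.37-fold lower (difference -2.67 ± 0.64, limma adjusted p = 0.0306; 0.0928, 0.121 and 0.0636 without BEC replicates 1 to 3, and 0.0674 and 0.0846 without LEC replicates 3 and 4, 0.1 with means of probe sets and 0.0995 without the trend).

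The genes that modify, fold and cleave procollagen had a median difference of 0.31 and sums of 9045 to 11979 in BEC and 8294 to 10935 in LEC. Of 19 tested 1 was called, P3h3, a prolyl 3-hydroxylase, at least 6.65-fold higher in LEC (difference 3.26 ± 0.78, limma adjusted p = 0.0303; 0.0789, 0.0919 and 0.0517 without BEC replicates 1 to 3 and 0.0538, 0.0618 and 0.0996 without LEC replicates 1 to 3, 0.0617 with equal medians and 0.115 with equal hybridisation controls). Of 9 tested elastic fibre genes outside the set Ltbp3, which holds latent TGF-beta in the matrix, was 3.94-fold higher (difference 1.98 ± 0.43, limma adjusted p = 0.0174; 0.0608 without LEC replicate 3, 0.0914 with equal medians, 0.269 with equal hybridisation controls and 0.0993 without the intensity trend). With the mean of its probe sets the difference was 0.90 (adjusted p = 0.612). The list's median was 1.21. Of 7 other interstitial collagens Col27a1 was at least 3.11-fold higher (limma adjusted p = 0.0457; 0.0622 with the replicate block), a call lost in 14 of 16 alternatives, and the median was 1.51.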

How the data were processed

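Total RNA of 4 LEC and 4 BEC samples was amplified with primers at the poly(A) end and along transcripts, labelled with biotin and read on single-colour arrays. The deposited values are log2 signals; MAS5 is named in the submitters' processing notes, with no version. Linear signals have a 2% trimmed mean of 100.04 on every array, read as scaling to equal totals by the authors, which can hide a global difference. They were used as deposited.

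Of 45101 probe sets 64 were controls, 34945 named 1 gene, 932 several and 9160 none (platform annotation, symbols updated to RefSeq). The brightest probe set stood for its gene, kept if at least 4 of the 8 arrays had it above their 40th percentile. Cell type was fitted with limma 3.58.1 (lmFit, eBayes with trend; R 4.3.3), two-sided, adjusted by Benjamini and Hochberg over 13259 genes, after testing on simulated data; the threshold is 0.05. "At least" marks folds taken after raising values to each array's background, the 95th percentile of 27 Bacillus controls.

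The replicate number is the mouse, per the series design. Correlations of same-mouse deviations were 0.142, 0.0776, 0.181 and 0.051, and the block is an alternative. P-values measure spread between animals and arrays together; 4 arrays per group limit the precision.

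Members and lists were chosen with earlier results of these data known. Named are all members, up to 4 called genes per other list by size, the 10 genes nearest to Col1a2, and defining markers of other cell types. Alternatives were the block, 3 scalings, 2 filters, values raised to background, means of probe sets, no trend, each array left out, and other limits for the LEC patterns.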

Additional observations from a re-analysis of the deposited data

Results flagged for a closer look

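In 3 of 62 groups of 4 arrays (31 members in each cell type) 1 array lay apart from the other 3 by more of the group's range than the 95% critical value of Dixon's test; chance gives about 1 in 20. Loxl1, a crosslinking enzyme, was at 2.11 on LEC replicate 3 against 4.42 to 4.89 on the other LEC arrays. Serpinf1, encoding PEDF, was at 6.80 on BEC replicate 3 against 8.02 to 8.17. Sparc was at 13.51 on BEC replicate 1 against 12.88 to 12.99. No member had LEC replicate 1 as such an array.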

How the results depend on the processing

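Sparc and Mgp were called lower in LEC under all 17 alternatives, whereas the call was lost under 10 for Col8a1, 8 for Fbln1 and 11 for Fbln2. Members called higher (1) numbered 2 with the replicate block, 3 with values raised to background, 0 with equal hybridisation controls, with means of probe sets and without the trend, and 0 to 5 with 1 array left out, the 5 being Col1a2, Dcn, Dpt, Fbln1 and Postn without LEC replicate 1. Members called lower (4) numbered 2 with quantile normalization, with hybridisation controls and without the trend, and 2 to 5 with 1 array left out. Over all genes, 123 were higher with hybridisation controls, and with 1 array left out 156 to 227 were higher and 180 to 329 lower. Equal medians gave 162 higher and 336 lower and hybridisation controls 123 and 280, against 234 and 306; they moved the median of all genes from 0.08 to -0.20 and -0.31. The replicate block changed no other member's call than those of Dpt, Serpinf1, Col8a1 and Fbln2.

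Even genes (4) numbered 2 at a range of 1.5 (21.6% of all genes were even) and 7 at 3 (47%). They numbered 2 with hybridisation controls (27.8%) and 8 with values raised to background (58.8%), some of them at that floor. Without 1 LEC array there were 5 to 12 (40% to 50.7%). Genes following Col1a2 (9) numbered 2 at 6 of 6 pairs (3.01% of all genes) and 2 with means of probe sets (6.21%). Without 1 LEC array 10 to 19 followed, where 2 of 3 pairs sufficed and 16.2% to 23.5% of all genes followed. Signs turned for differences near 0: Bgn to -0.21 (medians), -0.32 (hybridisation controls), -0.14 and -0.02 without BEC replicates 1 and 2 and -0.17 without LEC replicate 3; Fn1 to -0.26, -0.38, -0.38 without BEC replicate 2, and -0.43 and -0.03 without LEC replicates 2 and 4; Pdgfra to 0.81 (raised to background), 0.03 and 0.20 without BEC replicates 1 and 4, and 0.01 and 1.03 without LEC replicates 1 and 3; Col6a1 to -0.27 without LEC replicate 2; and Eln to 0.27 with means of probe sets. With 1 array left out, these ranged from -0.27 to 1.58 for Col6a1, -0.17 to 0.32 for Bgn, -0.84 to 1.03 for Pdgfra and -0.43 to 0.48 for Fn1. The cause was not tested. Signals near background limit Col12a1, Col14a1, Lum, Lox, Pi16, Col6a1 and Col6a3, and the BEC side of Dcn, Dpt and Postn.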
